A study of Mus musculus with 6 samples.

Results

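The 59 genes described here encode enzymes that add methyl groups to lysines, mostly of histones, or remove them, together with relatives that carry the same PR or SET domain. They were chosen by gene symbol, with earlier results of these data known. The rule took the rows of the expression table named Kdm, Setd, Kmt2, Ehmt, Suv39h, Suv420h or Prdm followed by their number, plus Nsd1, Dot1l, Ash1l, Smyd2, Smyd3 and Smyd5, and without Kdm1b. They made up 59 of 24255 genes. RNA-Seq compared fully-grown oocytes (FGOs), taken at the immature germinal vesicle (GV) stage from wild type (WT) mice, with FGOs of Lsm14b-knockout (Lsm14b-KO) mice, with 3 libraries per genotype and 20 oocytes in each library. The knockout mice were homozygous for an allele in which a reporter-tagged insertion disrupts Lsm14b in every cell of the body, so the change is not limited to oocytes. LSM14B is an RNA-binding protein of mRNP granules. Mice of both genotypes received 5 IU of PMSG, a gonadotropin that drives follicle growth, 46 h before oocytes were collected. The age of the mice used for RNA-Seq was not given in the sources used here.

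Histone lysine methylation marks chromatin by position. Methylation of H3K4 and H3K36 accompanies transcription, whereas methylation of H3K9, H3K27 and H4K20 accompanies silent or compacted chromatin. SET-domain enzymes write these marks with S-adenosylmethionine as methyl donor. The KDM1 and JmjC families of demethylases erase them. In growing oocytes, H3K4 and H3K36 methylation pattern the maternal epigenome, and FGOs then largely stop transcribing and rely on stored mRNAs until the embryo starts its own transcription. The mRNA content of an FGO thus reflects what was made during growth and what has since been kept or degraded.

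Before the genes themselves, the libraries were checked. Lsm14b was listed at 2.78, 3.98 and 1.72 FPKM (fragments mapped, scaled to transcript length and library size) in the WT libraries, whereas the Lsm14b-KO libraries read 0, 0 and 0.102, which matches the labels. All 15 oocyte markers passed the minimum for testing. Of 14 cumulus and granulosa markers, 5 were at 0 in all libraries, Amh and Foxl2 among them, and the sum over the list was 9.91 to 13.6 FPKM in WT and 6.17 to 10.2 FPKM in Lsm14b-KO. The aromatase gene Cyp19a1 made up most of that sum and was lower in Lsm14b-KO (log2 difference -0.98, SE 0.28, adjusted p = 0.0426). The other tested markers of that list were not called and had positive differences, 0.73 for Fshr (SE 0.28, adjusted p = 0.0923), whose groups did not overlap, and 0.38 for Inha (SE 0.26, adjusted p = 0.301). The part of these cells in the results below was not tested. All red blood cell markers in the table were at 0. The libraries differed in depth by genotype, because low values put the depth of Lsm14b-KO replicates 1, 2 and 3 at 1.33, 1.95 and 2.17 times that of WT replicate 1, against 1.14 and 1.03 times for WT replicates 2 and 3. FPKM summed over all genes ran from 1141324 to 1244182 in WT and from 564671 to 1029728 in Lsm14b-KO. A value of 0 need not mean absence, since 13 of 80 cytosolic ribosomal protein genes were also listed at 0 in at least 1 library.

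Most of these genes had little mRNA in FGOs. Of the 59, 8 were listed at 0 in all 6 libraries (Ehmt2, Setd7, Suv420h2, Kdm5d, Prdm8, Prdm11, Prdm12 and Prdm15). A further 31 were above 0 somewhere but under 1 FPKM in every library. The remaining 20 reached 1 FPKM in at least 1 library and were tested with limma on log2(FPKM + 1), together with all 6398 genes that did so, and a gene was called when its adjusted p was under 0.05. Differences below are Lsm14b-KO minus WT on that log2 scale, which understates the change of genes at low FPKM. Of the 20, 12 reached the minimum in both genotypes, 6 only in Lsm14b-KO (Kmt2c, Kmt2d, Nsd1, Prdm1, Prdm4 and Setd3) and 2 only in WT (Kdm7a and Smyd3). Genes of the latter kinds entered the test through the group in which they were high. The highest value of 12 of the 59 genes lay between 0.5 and 2 FPKM, close to this minimum, and 5 of those 12 were left untested.

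Lsm14b-KO FGOs had less mRNA of Setd4, Setd6, Suv39h1, Suv39h2, Kdm7a and Prdm6, and more of Setd2, Kmt2c and Prdm1. These 9 genes were called, 6 lower and 3 higher. Over all 6398 tested genes, 21.6% were called, 15.2% lower and 6.38% higher. Of the 12 genes that reached the minimum in both genotypes, 6 were called, 5 lower and 1 higher (Setd2), and of the 4899 genes that did so in the whole table, 21.9% were called, 16.2% lower and 5.63% higher. Kmt2c and Prdm1 were called after reaching it only in Lsm14b-KO, and Kdm7a after reaching it only in WT. The difference of the 20 tested genes had a median of 0.32, and that of all tested genes was -0.08. The values of the 2 genotypes did not overlap for 13 of the 20 genes, 7 lower and 6 higher, which compares with 45.0% of all tested genes, 26.0% lower and 19.1% higher. In bulk libraries such as these, a lower level per oocyte and fewer oocytes that hold the mRNA cannot be told apart.

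**Figure D1:**
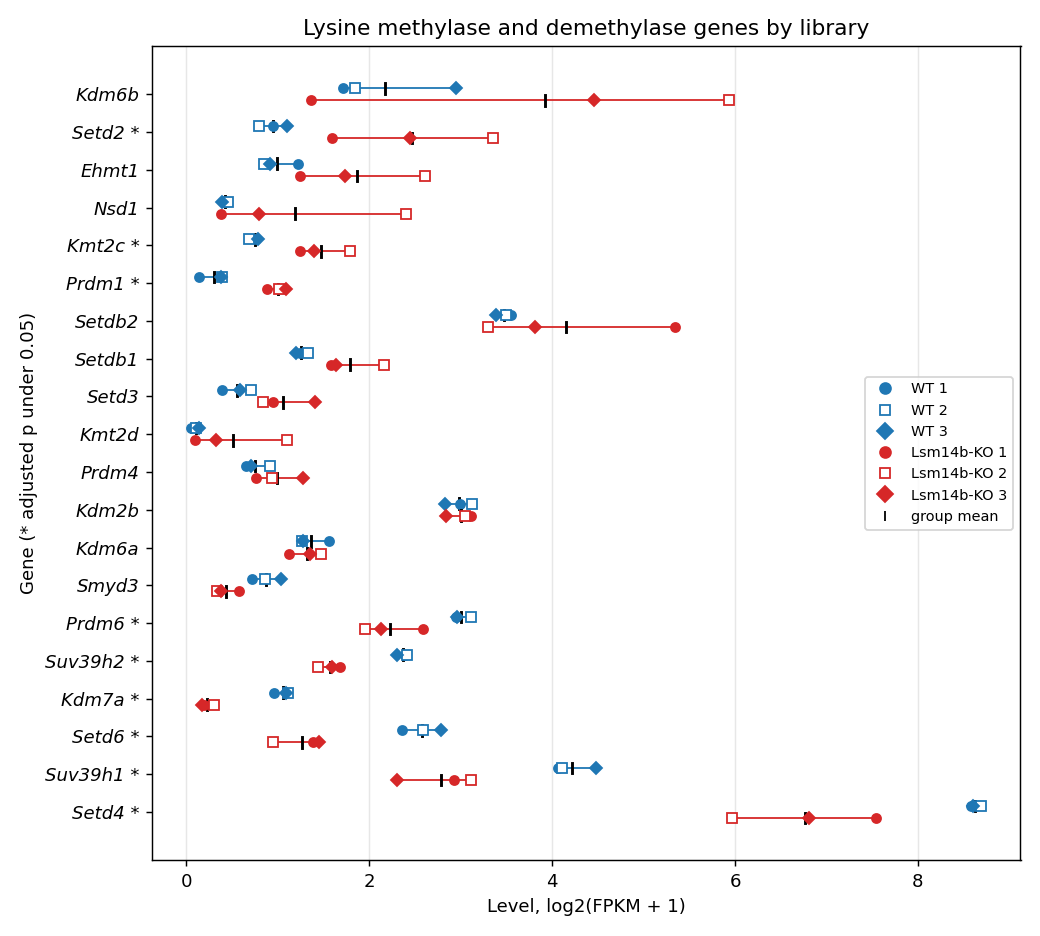
Level of each of the 20 tested genes in the 6 libraries, as log2(FPKM + 1), with blue symbols for WT, red symbols for Lsm14b-KO, a line for the range of each group and a black tick for its mean. Setd4 stands far above the other genes in both genotypes, the red ranges of Kdm6b, Nsd1, Setd2 and Setdb2 are wide, and the 9 genes with an asterisk were called.

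In WT, most of the FPKM of this group came from a single gene, Setd4, a SET-domain protein. Its level was 383, 412 and 388 FPKM in WT replicates 1, 2 and 3, and the same replicates of Lsm14b-KO held 185, 61.3 and 111. The 3 WT libraries lay close together, and every Lsm14b-KO library lay below them, replicate 2 the lowest. The mean fell from 394 ± 15.5 to 119 ± 62.3 FPKM (SD, n = 3 each), or 0.302 times the WT level, with a log2 difference of -1.86 (SE 0.42, adjusted p = 0.0206). By mean FPKM it held rank 335 of the 6398 tested genes in WT and rank 516 in Lsm14b-KO. Setd4 (GRCm38 chromosome 16, 93583457 to 93604063, minus strand) made up 84.3% to 86.0% of the FPKM summed over the 59 genes in WT. In Lsm14b-KO replicates 1, 2 and 3 that share was 70.3%, 32.8% and 60.1%. Without Setd4, the remaining genes summed to 62.7 to 72.1 FPKM in WT and to 78.3, 125.5 and 73.4 FPKM in Lsm14b-KO. All 3 Lsm14b-KO libraries thus lay above WT in this sum, replicate 3 narrowly, and below WT in the sum with Setd4. Large parts of the Lsm14b-KO sums without Setd4 came from genes that were not called. These were Setdb2, at 39.6 FPKM in replicate 1, and Kdm6b, at 59.9 and 21.0 FPKM in replicates 2 and 3.

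The other Setd members, whose main substrates are not histones or are unsettled, were Setd3, Setd5 and Setd6. Setd6, which methylates the NF-kB subunit RelA, was listed at 4.14, 5.02 and 5.90 FPKM in WT and at 1.61, 0.923 and 1.73 FPKM in Lsm14b-KO. The groups lay well apart, and the mean fell to 0.283 times that of WT (log2 difference -1.32, SE 0.23, adjusted p = 0.0080). Setd6 lies on chromosome 8 (95715881 to 95719010, plus strand), with no annotated gene overlapping it. Setd3, the actin histidine methylase, showed 0.306, 0.626 and 0.495 FPKM in WT against 0.921, 0.787 and 1.64 FPKM in Lsm14b-KO and was not called (log2 difference 0.50, SE 0.23, adjusted p = 0.134). It shares near-identical sequence with 2 pseudogene-like copies (Gm14026 and Gm7114), between which reads could have been split. Setd5 stayed at or under 0.0560 FPKM.

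Among the 7 H3K9 methylases, the mRNAs of both Suv39h enzymes fell, whereas those of the other tested members were not called. SUV39H1 and SUV39H2 trimethylate H3K9 at pericentric heterochromatin. Suv39h1 was at 15.7, 16.2 and 21.2 FPKM in WT and at 6.63, 7.63 and 3.93 FPKM in Lsm14b-KO, a fall of the mean to 0.342 times (log2 difference -1.43, SE 0.29, adjusted p = 0.0144). Every WT value was at least 15.7 FPKM and every Lsm14b-KO value at most 7.63 FPKM. Suv39h2 was at 4.23, 4.34 and 3.92 FPKM in WT and at 2.21, 1.70 and 2.01 FPKM in Lsm14b-KO, with tight values in both groups (0.474 times, log2 difference -0.80, SE 0.19, adjusted p = 0.0231). Suv39h1 lies on chromosome X (8061171 to 8074760, minus strand) and Suv39h2 on chromosome 2 (3455815 to 3475031, minus strand). Since the use of strand in counting was not stated, reads of Suv39h2 and of Dclre1c, which overlaps it on the other strand, may have been mixed.

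Setdb1, Setdb2 and Ehmt1 pointed the other way in the fit without passing the test. Ehmt1, the G9a partner that dimethylates H3K9 in euchromatin, was at 1.34, 0.798 and 0.884 FPKM in WT and at 1.37, 5.11 and 2.32 FPKM in Lsm14b-KO (log2 difference 0.87, SE 0.34, adjusted p = 0.101). Its Lsm14b-KO replicate 1 almost equalled the highest WT library. Setdb1, which silences retroelements with TRIM28, had a log2 difference of 0.53 (SE 0.22, adjusted p = 0.110) with groups that did not overlap. Setdb1, Kdm2b and Kmt2d each have 1 near-identical copy elsewhere in the annotation (Gm4349, Gm12397 and Gm47184), and Setdb1 and Kdm6b are overlapped on the other strand by Cers2 and Kdm6bos, so their values are uncertain to that extent. The called genes Setd4 (AC160993.1), Suv39h1 (Gm14820) and Kdm7a (4930599N23Rik) also have overlaps on the other strand. Setd2 (Gm42763), Kmt2c (Gm20432) and Setdb2 (Gm16301) have them on the same strand. Setdb2 was at 10.7, 10.3 and 9.42 FPKM in WT and at 39.6, 8.80 and 13.02 FPKM in Lsm14b-KO (log2 difference 0.67, SE 0.49, adjusted p = 0.321). That gene was high in Lsm14b-KO replicate 1 alone, and without that library its difference was 0.08. Of the untested members, Ehmt2 was at 0 throughout and Prdm2 stayed at or under 0.475 FPKM.

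H3K36 and H3K79 methylation is written here by Setd2, Nsd1, Ash1l and Dot1l. Setd2, the enzyme of H3K36 trimethylation along transcribed genes, rose from 0.931, 0.737 and 1.15 FPKM in WT to 2.02, 9.25 and 4.43 FPKM in Lsm14b-KO. The 3 Lsm14b-KO libraries all lay above WT and were widely spread (5.57 times, log2 difference 1.51, SE 0.40, adjusted p = 0.0353). Setd2 lies on chromosome 9 (110532597 to 110618633, plus strand). Nsd1, which dimethylates H3K36, was at 0.341, 0.370 and 0.313 FPKM in WT and at 0.303, 4.28 and 0.732 FPKM in Lsm14b-KO. Its difference of 0.77 (SE 0.47, adjusted p = 0.247) came from Lsm14b-KO replicate 2, while replicate 1 lay below all WT libraries. Ash1l and Dot1l, the H3K79 methylase, were under 1 FPKM in every library and reached 0.550 and 0.0948 FPKM, both in Lsm14b-KO replicate 2.

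Of the 12 genes grouped here as H3K4 methylases, 3 were tested. Kmt2c, which monomethylates H3K4 at enhancers, rose from 0.696, 0.612 and 0.723 FPKM to 1.37, 2.45 and 1.63 FPKM (2.68 times, log2 difference 0.73, SE 0.21, adjusted p = 0.0426). The WT values were within a narrow range, and all Lsm14b-KO values lay above it. Kmt2c lies on chromosome 5 (25271798 to 25498783, minus strand). Its close relative Kmt2d was at 0.0384, 0.0789 and 0.0999 FPKM in WT and at 0.0678, 1.14 and 0.249 FPKM in Lsm14b-KO and was not called (log2 difference 0.40, SE 0.29, adjusted p = 0.312). Kmt2d reached the minimum for testing in Lsm14b-KO replicate 2 alone. Smyd3 had 0.647, 0.820 and 1.05 FPKM in WT and 0.487, 0.258 and 0.298 FPKM in Lsm14b-KO, with no overlap but without a call (log2 difference -0.45, SE 0.20, adjusted p = 0.134).

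The 9 untested genes of the H3K4 methylase group reached at most 0.500 FPKM. They include Kmt2b, the main writer of H3K4 trimethylation in growing oocytes, at 0.0537 to 0.183 FPKM in WT and 0.115 to 0.330 FPKM in Lsm14b-KO. Prdm9, which marks recombination sites in early meiosis, was above 0 in 1 library. Setd1a and Setd1b, the catalytic subunits of H3K4 methylase complexes, and Kmt2e were higher in all 3 Lsm14b-KO libraries than in any WT library. For Setd1b the WT values were 0.0292, 0.0514 and 0.0569 FPKM and the Lsm14b-KO values 0.0882, 0.285 and 0.203 FPKM. At such levels the greater depth of the Lsm14b-KO libraries moves with the values, and its part was not tested.

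The genes grouped here as H4K20 methylases were all untested. Setd8, which monomethylates H4K20, was at 0.509, 0.535 and 0.691 FPKM in WT and at 0.306, 0.314 and 0.515 FPKM in Lsm14b-KO, so the groups overlapped. Suv420h1 reached 0.459 FPKM in 1 WT library and stayed between 0.0831 and 0.171 FPKM in the rest, and Suv420h2 was at 0 in all 6. RefSeq and GENCODE call these genes Kmt5a, Kmt5b and Kmt5c.

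Demethylases of H3K27 were the only demethylases with more than 1 tested gene. Kdm7a, a JmjC enzyme that removes dimethylation of H3K9 and H3K27, fell from 0.946, 1.16 and 1.13 FPKM in WT to 0.143, 0.236 and 0.125 FPKM in Lsm14b-KO. This was the lowest ratio among the 20 tested genes (0.155 times, log2 difference -0.83, SE 0.19, adjusted p = 0.0203), and values within each genotype were close. Kdm7a lies on chromosome 6 (39136623 to 39206789, minus strand). Kdm6b (JMJD3), which removes H3K27 trimethylation, had the largest fitted rise and also the widest spread. It was at 2.28, 2.59 and 6.70 FPKM in WT and at 1.57, 59.9 and 21.0 FPKM in Lsm14b-KO, and was not called (log2 difference 1.75, SE 1.01, adjusted p = 0.225). Lsm14b-KO replicate 1 lay below every WT library while the others lay above. Without that replicate the difference was 3.03 (adjusted p = 0.0047), in a fit that called 45.3% of all tested genes. Without Lsm14b-KO replicate 2 the difference was 0.74 (adjusted p = 0.569), and without replicate 3 it was 1.48 (adjusted p = 0.4345). Kdm6a, the X-linked relative of Kdm6b, had a difference of -0.05 (SE 0.20, adjusted p = 0.854), which turned to 0.40 after rescaling to TPM.

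Among demethylases of H3K9 and H3K36, Kdm2b was the only tested gene of 9. Kdm2b, which also recruits a Polycomb complex to CpG islands, was at 6.95, 7.72 and 6.07 FPKM in WT and at 7.67, 7.26 and 6.15 FPKM in Lsm14b-KO. The 2 ranges coincided almost fully (log2 difference 0.02, SE 0.22, adjusted p = 0.947), and the sign changed to -0.22 after correction for length and GC content. The other 8 stayed at or under 0.304 FPKM. Kdm3b, an H3K9 demethylase, was at 0.0733, 0.0322 and 0 FPKM in WT and at 0.276, 0.282 and 0.271 FPKM in Lsm14b-KO. Kdm3b was under the minimum in every library, so it was tested only when no minimum was set. There it was called (log2 difference 0.30, SE 0.06, adjusted p = 0.0412), as were 5.03% of 14325 genes.

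No H3K4 demethylase of the group reached the minimum. Kdm1a (LSD1), a demethylase that oocytes need for orderly meiosis, came closest, at 0.456, 0.799 and 0.442 FPKM in WT and 0.480, 0.655 and 0.504 FPKM in Lsm14b-KO, with overlapping groups. Kdm5b and Kdm5c, which remove H3K4 trimethylation, were higher in every Lsm14b-KO library than in any WT library. Kdm5c was at 0.0700, 0.0616 and 0.114 FPKM in WT and at 0.176, 0.444 and 0.335 FPKM in Lsm14b-KO. Over the 39 untested genes, 6 lay higher without overlap (Kdm3b, Kdm5b, Kdm5c, Kmt2e, Setd1a and Setd1b). The same held for 10.9% of the 7927 genes that were above 0 but under 1 FPKM in every library.

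The 12 other Prdm members are mostly zinc-finger regulators with a PR domain. Prdm1 (BLIMP1), a repressor that specifies primordial germ cells, rose from 0.102, 0.313 and 0.297 FPKM to 0.845, 1.02 and 1.13 FPKM. The 2 groups lay apart at low levels (4.20 times, log2 difference 0.69, SE 0.19, adjusted p = 0.0403). Prdm6, known from vascular smooth muscle, fell from 6.69, 7.65 and 6.80 FPKM to 5.03, 2.88 and 3.37 FPKM (0.534 times, log2 difference -0.78, SE 0.24, adjusted p = 0.0495). All Lsm14b-KO libraries were below WT, and the adjusted p was the one nearest to the threshold. Prdm4 was not called (log2 difference 0.24, SE 0.21, adjusted p = 0.412). Of the rest, 4 were at 0 throughout.

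The 3 Lsm14b-KO libraries differed from WT to unequal degrees. On the log2 scale, the median absolute distance of the 20 tested genes from the WT mean was 0.46 in replicate 1, 0.96 in replicate 2 and 0.76 in replicate 3, against 0.42, 0.76 and 0.58 over all tested genes. Replicate 1 was the nearest to the WT mean for 13 of the 20 genes. Of the 12 genes with a positive difference, 7 had their highest value in replicate 2. The spread among Lsm14b-KO libraries exceeded that among WT libraries for 16 of the 20 genes. The falls of Suv39h2, Kdm7a and Setd6 were of like size in all 3 libraries, whereas the differences of Kdm6b, Nsd1, Kmt2d and Setdb2 rested on 1 or 2 libraries.

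**Figure D2:**
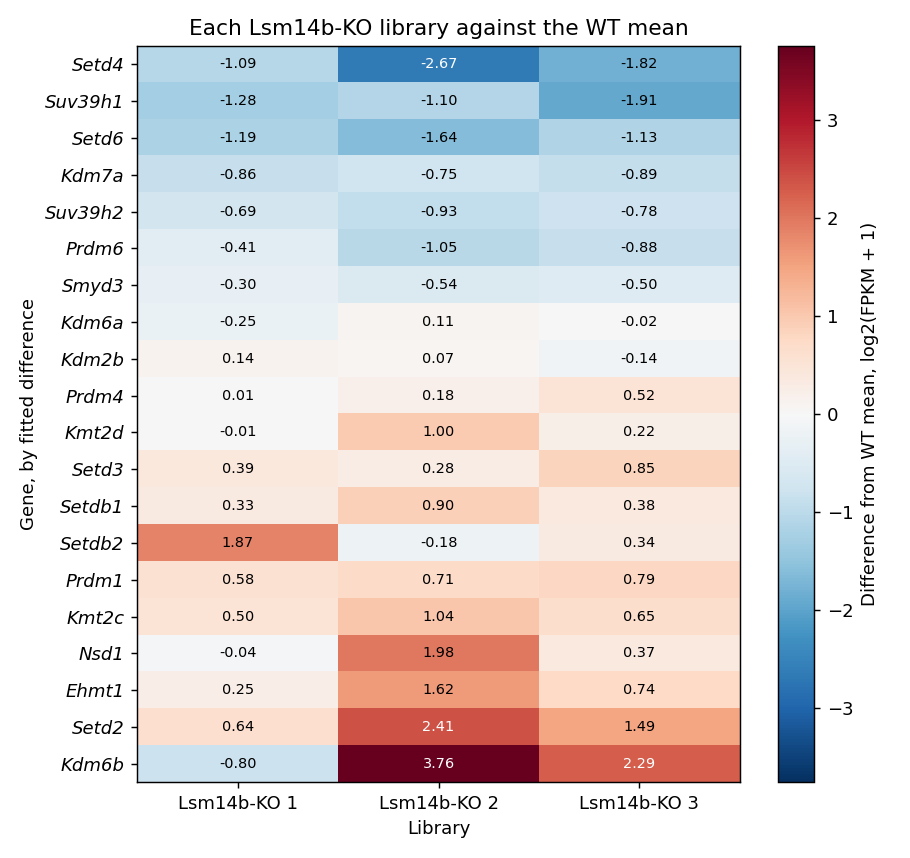
Difference of each Lsm14b-KO library from the mean of the 3 WT libraries on the log2(FPKM + 1) scale, for the 20 tested genes ordered by fitted difference, with blue for lower and red for higher. The first 7 rows are blue in all 3 libraries, and the deepest red falls on Kdm6b in replicate 2, at 3.76, with -0.80 for the same gene in replicate 1.

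The number of calls depended on single libraries. Setd6 was called whichever library was left out (adjusted p 0.0047 to 0.0467). Without WT replicate 1, 2 genes were called, Setd6 and Kdm7a, and without WT replicate 2, WT replicate 3 or Lsm14b-KO replicate 3, 1 gene each, Setd6. Without Lsm14b-KO replicate 2, 4 genes were called, Setd6, Setd4, Suv39h1 and Kdm7a, and without Lsm14b-KO replicate 1, 11 genes. Over all 6398 tested genes, 6.2%, 6.2% and 7.2% were called without WT replicates 1, 2 and 3. The shares were 45.3%, 13.5% and 4.9% without Lsm14b-KO replicates 1, 2 and 3. For Setd4 the adjusted p ranged from 0.0013 to 0.0906, for Suv39h1 from 0.0065 to 0.0699, for Suv39h2 from 0.0099 to 0.0952 and for Kdm7a from 0.0124 to 0.0876. For Setd2 it ranged from 0.0030 to 0.123, for Kmt2c from 0.0154 to 0.128, for Prdm1 from 0.0194 to 0.141 and for Prdm6 from 0.0068 to 0.164. The sign of each of these 9 genes was the same in all 6 of these fits.

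The scale also mattered, since FPKM sums were lower in Lsm14b-KO. When every library was rescaled to the same sum (TPM), the median difference of all tested genes moved from -0.08 to 0.40, by 0.47. Over all tested genes, the calls that were higher moved from 408 of 1383 to 833 of 1319. The split of calls among the 20 genes moved from 3 higher and 6 lower to 4 higher and 1 lower. Setd2 (adjusted p = 0.0422), Kmt2c (0.0434), Prdm1 (0.0357) and Setdb2 (0.0373) were then called higher, and Setd4 (0.0234) lower. Counted from the median of all genes tested, the differences on the FPKM and TPM scales were -1.78 and -1.56 for Setd4, -1.36 and -1.20 for Suv39h1, -1.25 and -1.24 for Setd6, and 1.59 and 1.62 for Setd2. Among these genes Setd4 stayed the lowest and Setd2 the highest, while Suv39h1 and Setd6 changed places. Setdb2 moved from 0.75 to 0.91, past Nsd1 (0.84 and 0.74) and Kmt2c (0.81 and 0.74).

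**Figure D3:**
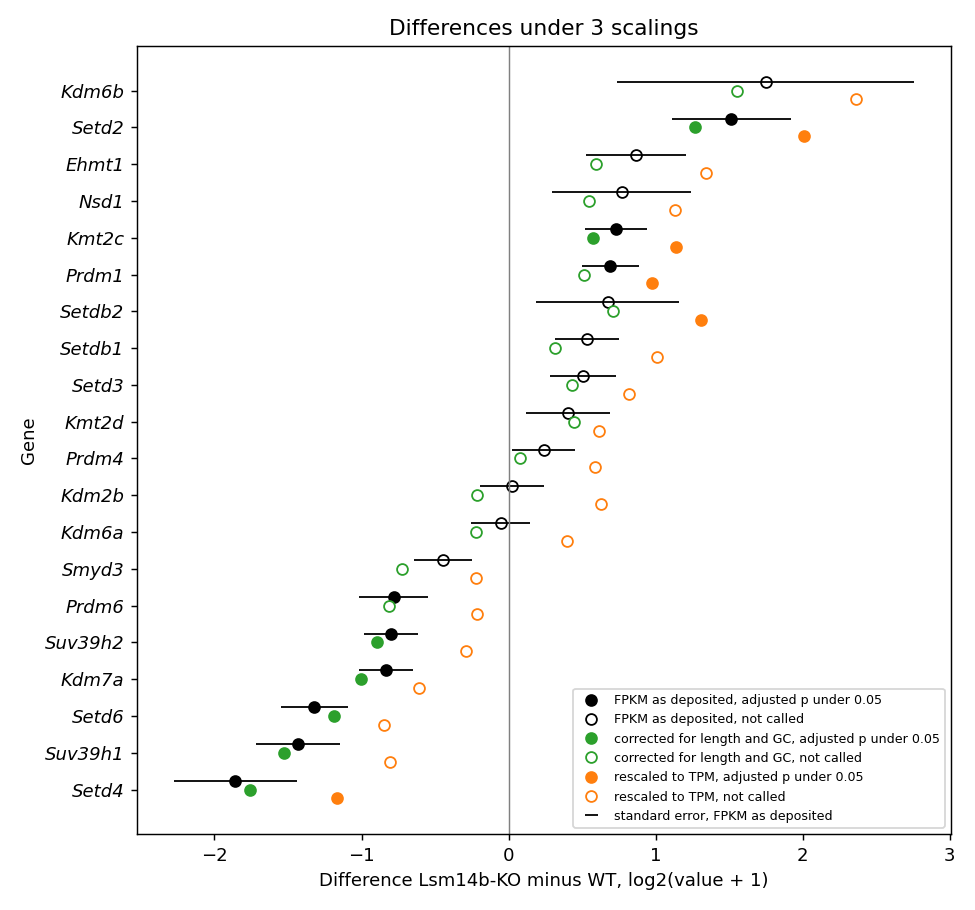
Difference between Lsm14b-KO and WT for the 20 tested genes on the log2(value + 1) scale, from FPKM as deposited (black, with standard error), after correction for length and GC content (green) and after rescaling to TPM (orange), with filled symbols for an adjusted p under 0.05. The orange points lie to the right of the black ones for all genes, and Setd4, Setd2 and Kmt2c are filled under all 3 scalings.

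Called genes differed in transcript length. Lengths of the GENCODE transcripts were 4025 to 14967 nt for the 3 genes called higher and 1707 to 9566 nt for the 6 called lower, with medians of 8350 and 2873.5 nt. Over all tested genes with a length, longer transcripts had higher differences (Spearman rho 0.36 across 6318 genes, which share the 6 libraries), and rho was 0.50 across the 20 genes. After correction for length and GC content, rho was 0.01 across all genes and 0.47 across the 20. Setd4, Suv39h1, Setd6, Kdm7a, Suv39h2, Setd2 and Kmt2c were still called after that correction, in a fit that called 22.7% of all tested genes. Prdm1 (0.51, adjusted p = 0.0829) and Prdm6 (-0.81, adjusted p = 0.0559) were not. Kdm7a, with 9566 nt, was a long transcript that fell.

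**Figure D4:**
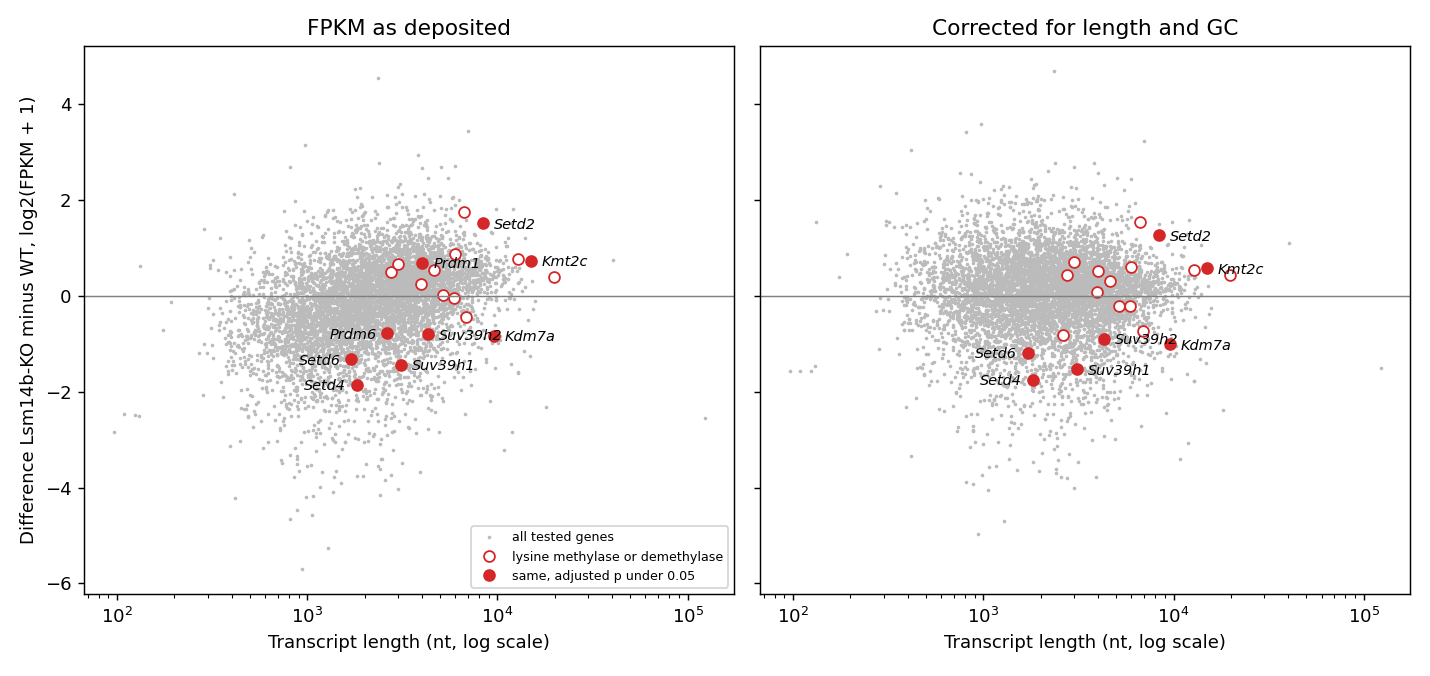
Difference between Lsm14b-KO and WT on the log2(FPKM + 1) scale against transcript length in nt, on a log axis, for all tested genes with a length (grey) and the lysine methylase and demethylase genes (red, filled where the adjusted p is under 0.05), before (left) and after (right) correction for length and GC content. The upward drift of the grey points on the left is gone on the right, and Setd2, Kmt2c, Kdm7a, Suv39h1, Suv39h2, Setd4 and Setd6 are labelled in both.

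Sequence was examined because LSM14B binds mRNA. The study mapped LSM14B contacts in oocytes by LACE-seq and reported CCUCUC, written here as CCTCTC in DNA letters, as the most enriched hexamer. This hexamer was counted on the sense strand of 1 GENCODE transcript per gene, and overlapping matches were allowed. It was present in 54.0% of all tested transcripts and in 15 of the 20 tested genes, whose transcripts are longer (median 4919 nt against 2250.5 nt). All 3 genes called higher held it and 2 of the 6 called lower did. Setd4, Setd6, Kdm7a and Prdm6 held none. Among tested transcripts within 20% of the same length, the share with the hexamer was 48.3% for Setd4, 46.7% for Setd6, 57.5% for Prdm6 and 90.7% for Kdm7a. For the called genes that held it, this share was 100% for Kmt2c, 93.2% for Setd2 and 70.6% for Prdm1. It was 73.4% for Suv39h2 and 62.6% for Suv39h1, so most transcripts of like length also held it. There were 5 copies in Kmt2c, 3 in Setd2, 2 each in Prdm1 and Suv39h2 and 1 in Suv39h1. In that order, this is 0.334, 0.359, 0.497, 0.462 and 0.321 per kb. The median over all tested transcripts, 0.226 per kb, includes transcripts without the hexamer. Genes picked for holding a copy therefore tend to lie above it, and no difference in density is read from these values. A match is a description of letters and does not mark a binding site.

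The matches in the called genes other than Kmt2c are shown to place them in the mRNA, as the hexamer in capitals with 10 bases on either side, in the sense direction. Those of Setd2 were all in the coding part, those of both Suv39h genes in the 3′ UTR, and those of Prdm1 in both.
Setd2 (chromosome 9, 110556290 to 110556295, plus strand, coding): attgaatgttCCTCTCgatgtccaaa
Setd2 (chromosome 9, 110569718 to 110569723, plus strand, coding): atggtgaaggCCTCTCtgataagaac
Setd2 (chromosome 9, 110594273 to 110594278, plus strand, coding): ggatataatgCCTCTCatcacccctt
Prdm1 (chromosome 10, 44439788 to 44439793, minus strand, coding): ggaacggcctCCTCTCctcagggtgc
Prdm1 (chromosome 10, 44439531 to 44439536, minus strand, 3′ UTR): cttccctgcaCCTCTCtggaattaaa
Suv39h1 (chromosome X, 8062795 to 8062800, minus strand, 3′ UTR): aagccaccttCCTCTCctacagctac
Suv39h2 (chromosome 2, 3456648 to 3456653, minus strand, 3′ UTR): ctctttcctgCCTCTCaacattcccc
Suv39h2 (chromosome 2, 3456623 to 3456628, minus strand, 3′ UTR): ccattacatcCCTCTCagactgtcac

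The list of LACE-seq peak sequences was held here only in part, so a gene without a peak in it may still have one. Within that part, 32 sequences of 20 bases matched exactly 1 place in the transcripts of 5 of the 59 genes, with 11 each in Kmt2c and Setd1b, 4 each in Kdm6b and Nsd1 and 2 in Kmt2d. Those of Kmt2c, Setd1b and Nsd1 were in coding sequence, and those of Kdm6b and Kmt2d in the 3′ UTR. Of these genes, Kmt2c was called higher, Kdm6b, Nsd1 and Kmt2d were tested and not called, and Setd1b was under 1 FPKM in every library. The 3 peaks that contain the hexamer, in capitals, were placed on GRCm38 by the exact match.
Kmt2c (chromosome 5, 25293203 to 25293222, minus strand, coding): accccctgCCTCTCttcctc
Kdm6b (chromosome 11, 69398739 to 69398758, minus strand, 3′ UTR): ccagggcagggCCTCTCtgg
Setd1b (chromosome 5, 123148312 to 123148331, plus strand, coding): cctactctggagtCCTCTCc

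Partners and relatives of these enzymes were taken from lists written out by role. Of 37 tested, 11 were called, all of them higher in Lsm14b-KO. Over all 6398 tested genes, 6.38% were called higher and 15.2% lower. Of these 11, 6 (Jarid2, Rbbp5, Cbx3, Trim28, Rcor3 and Ahcyl1) were under 1 FPKM in every WT library and entered the test through Lsm14b-KO alone. Of the 26 that reached 1 FPKM in both genotypes, 5 were called. Of the 4899 genes that did so in the whole table, 5.63% were called higher. Of 5 tested genes listed as other methylases and demethylases, a list that includes the cofactor gene Jarid2, 3 were called higher (median difference 0.86). Setmar was the only one of the 5 with a negative difference and was not called (-0.635, SE 0.25, adjusted p = 0.0984). Kdm1b (LSD2), the demethylase that clears H3K4 methylation for maternal imprints, went from 8.97, 8.60 and 10.7 FPKM to 44.5, 54.4 and 33.2 FPKM (log2 difference 2.09, SE 0.28, adjusted p = 0.0034). Ezh2, the H3K27 methylase of Polycomb complex 2, and its cofactor Jarid2 had differences of 0.86 (SE 0.21, adjusted p = 0.0259) and 1.36 (SE 0.22, adjusted p = 0.0062). Kdm1b was thus called while the related Kdm1a stayed under 1 FPKM.

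Of 10 tested partners in H3K9 methylation, 3 were called higher and none was called lower (median 0.55). These were Uhrf1, which reads H3K9 methylation (1.57, SE 0.47, adjusted p = 0.0480), Trim28, the SETDB1 recruiter (0.64, SE 0.19, adjusted p = 0.0447), and Cbx3, an HP1 protein listed at 0.164, 0.287 and 0 FPKM in WT and at 1.35, 1.18 and 1.43 FPKM in Lsm14b-KO (1.02, SE 0.20, adjusted p = 0.0129). The differences of these 3 were opposite in sign to those of the Suv39h methylases. Trim28 and Cbx3 entered the test through Lsm14b-KO alone, which favours a positive difference, and only Uhrf1 reached 1 FPKM in both genotypes. Cbx1 was the only one of the 10 with a negative difference. It was at 12.3, 13.8 and 14.5 FPKM in WT and at 10.7, 7.34 and 7.77 FPKM in Lsm14b-KO. Its groups did not overlap, and it was not called (-0.61, SE 0.24, adjusted p = 0.1025). Of 10 tested COMPASS partners, core and accessory subunits of H3K4 methylase complexes, Rbbp5 (0.72, SE 0.20, adjusted p = 0.0424) and Wdr82 (0.80, SE 0.22, adjusted p = 0.0396) were higher, with a median of -0.10 over the 10. The core subunit Dpy30, by far the most abundant of them, was at 1462, 1369 and 1204 FPKM in WT and at 1044, 190 and 343 FPKM in Lsm14b-KO, without overlap, and was not called (-1.71, SE 0.57, adjusted p = 0.0659). Bod1 (-0.60, adjusted p = 0.0891) and Psip1 (-0.65, adjusted p = 0.135) also had negative differences without a call. Among 4 tested CoREST partners of Kdm1a (median 0.46), 1 was called, Rcor3, from 0.216, 0 and 0.140 FPKM to 0.541, 1.14 and 1.33 FPKM (0.82, adjusted p = 0.0402). Mllt3, which targets DOT1L to chromatin, was called (1.18, SE 0.26, adjusted p = 0.0193), as 1 of 2 tested DOT1L partners (median 0.60), although Dot1l itself was under 0.1 FPKM. Among 6 tested genes of methyl donor and cofactor supply (median 0.40), Ahcyl1, a relative of S-adenosylhomocysteine hydrolase, was called (0.77, SE 0.18, adjusted p = 0.0251). Kdm1b and Jarid2 were called whichever library was left out (highest adjusted p 0.0336 and 0.0461), and Cbx3 was not called without Lsm14b-KO replicate 3 (adjusted p = 0.0681). Ezh2 and Mllt3 were not called without WT replicate 1, 2 or 3 or Lsm14b-KO replicate 3 (highest adjusted p 0.111 and 0.0938). Rbbp5, Wdr82, Trim28, Uhrf1, Rcor3 and Ahcyl1 were called only when Lsm14b-KO replicate 1 was the library left out (highest adjusted p otherwise 0.121, 0.153, 0.126, 0.151, 0.148 and 0.0939).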

How the data were processed

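Each library came from 20 FGOs, with Smart-seq2 amplification of total RNA and paired reads of 150 bp. The labels name 2 library kits, and neither strandedness nor annotation is given in the sources used here. Per the submitters' processing notes, reads were aligned to mm10 with TopHat2 (2.0.13), and the authors computed the deposited FPKM values with Cufflinks (2.2.1). The deposited table pairs each of 24255 genes with 1 FPKM value per library and holds no counts. It also has 3 columns of the authors' own comparison (log2 fold change, p-value and q-value), which were not used. A spreadsheet had turned 27 symbols into dates.

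Genes that reached 1 FPKM in any library were fitted on log2(FPKM + 1) with limma 3.58.1 in R 4.3.3 (lmFit, eBayes with trend), with genotype as the only term, two-sided, and Benjamini-Hochberg adjustment over 6398 genes. The fit was tested on simulated data. Lengths, GC content and coordinates came from GENCODE vM21 (GRCm38, the assembly of mm10). The length and GC correction subtracted a loess fit in each library. Near-identical copies were searched for with blastn 2.17.0 (95% identity over 200 nt). Binding-peak sequences were located by exact match. Relative depth was the commonest ratio of low values between libraries.

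Groups came from the sample labels, which do not say that replicates were separate animals, so p-values measure the spread between these libraries, which may be partly technical. The genes and lists were chosen with earlier results of these data known. All 6 values are given for called genes, for the 10 genes with the highest mean FPKM and for the largest fitted rise and fall in each role. Nsd1, Kmt2d, Kmt2b, Setd1b, Setd8, Kdm1a, Kdm3b, Kdm5c, Dpy30, Bod1, Psip1, Fshr and Inha were added after their values were seen. One gene of the group is not reported here. Alternatives were other pseudocounts, minimums, scalings and weights, a replicate block and leaving out each library.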

Additional observations from a re-analysis of the deposited data

How the results depend on the processing

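The 9 calls among the lysine methylase and demethylase genes became 4 (1 higher, 3 lower) with no minimum, when 51 of the genes were tested, 5 (1 lower) after TPM rescaling and 15 (8 higher) with array weights. The array weights gave Lsm14b-KO replicate 3 a weight of 34.2, the others at most 1.21, and called 4383 of 6398 genes. Over all genes tested, 5.03% were called with no minimum and 20.6% after TPM rescaling, against 21.6% in the main fit. Leaving out 1 library gave 1 to 11 calls, with 0 to 5 higher and 1 to 6 lower. These fits called 4.9% to 45.3% of all tested genes. Groups did not overlap for 20 of the 51 genes with no minimum and for 13 to 17 of the 20 tested genes without 1 library. The share over all tested genes was not taken under these settings, and fewer libraries make overlap less likely. No change is therefore read from these counts. The difference of Kdm2b turned to -0.22 with the length and GC correction, with or without the replicate block, and to -0.16 with array weights, and ranged from -0.057 to 0.102 without 1 library. That of Kdm6a turned to 0.40 with TPM and to 0.044 without WT replicate 1 or Lsm14b-KO replicate 1 (lowest -0.133 without 1 library). Of the 20 tested genes, these were the only ones that changed sign under any alternative run. The replicate block left 6 calls (1 higher), also with the length and GC correction. Over all tested genes, 19.4% were called with the block and 20.9% with the block and that correction. Same-numbered libraries did not deviate together (r = 0.19, -0.13 and 0.02), and not every library correlated best with its own number. The cause of these changes was not tested. The part of depth in calls of genes near 1 FPKM was not tested.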
